A study of Mus musculus with 12 samples.

Results

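The acyl-CoA binding domain family is described here in neutrophils sorted from mouse hearts. A gene was taken as a member where the symbol column of the deposited expression table held Dbi, Acbd3, Acbd4, Acbd5 or Acbd6. All 5 members were found among the 11911 genes of the table, and none was missing from it. The family was picked because Acbd4 had reads in all 6 LOY libraries and nearly none in the 6 control libraries, so the difference in Acbd4 is given as a description with no test. Acbd7, Eci3 and Dbil5, which also carry an acyl-CoA binding domain, were looked for and are not in the table, while Eci2 is.

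The study sequenced RNA of 12 libraries, each from 800 cells of the digested left ventricle, to ask what losing the Y chromosome in the blood system does to the heart. Cells were sorted as positive for CD45.2, Ly6G and a red fluorescent protein (RFP) and negative for CD64, a macrophage receptor. The genotype label reads Control in 6 libraries (2, 6, 7, 8, 11 and 12) and LOY in the other 6 (3, 4, 5, 10, 14 and 15). Every library's title names a control bone marrow transplant (Control BMT) and every treatment label reads Control. The groups rest on the genotype label and on a code that ends each title, C for control and KO for LOY. The age, strain and sex of the mice, the way the Y chromosome was lost and what drove RFP are not named in the labels. Nor do they say whether libraries came from separate mice, so p-values measure only the spread between these libraries.

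Fatty acids enter metabolism as thioesters of coenzyme A, and acyl-CoA binding proteins hold these esters in a shared helical domain and hand them to enzymes and membranes. Dbi is the small soluble form, also known as diazepam binding inhibitor, and it is found in most cells. Acbd3 is a Golgi scaffold, Acbd4 and Acbd5 are anchored in the peroxisome membrane and tether it to the endoplasmic reticulum, and Acbd6 is a soluble protein that works with N-myristoyltransferases. In neutrophils, long-chain acyl-CoA feeds membrane lipids, lipid mediators and the lipidation of proteins.

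Values are normalised reads, that is, the reads of a gene over a scaling factor of its library. Levels of different genes are compared per kilobase of exon. A fold change is the LOY mean minus the control mean of log2(normalised reads + 1), which need not match the ratio of the mean reads where some libraries are at 0. The test was limma over the 6951 genes that reached 10 normalised reads in 6 or more libraries, with Benjamini-Hochberg adjustment and a threshold of 0.05. Of the 5 members, 4 passed this filter, and Acbd4 passed it only through its 6 LOY libraries.

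The listed genes drew 6767108 to 12561174 reads per library, and the values of most genes varied widely within a group. The median residual SD over the genes tested was 2.37 log2 units, and 77.3% of the genes tested had a residual SD above 1. All 12 neutrophil markers were in the table, with summed levels of 196316 to 604979 normalised reads across the controls and 180835 to 364955 across LOY. Ly6g itself, the antigen of the sort, was at 0 to 5.82 in LOY 3, 4 and 10, at 0.925 in control 12 and at 186 to 1039 in the other libraries. The Y-linked gene Ddx3y was at 400 to 1341 in the control libraries and at 0 in 4 LOY libraries, and it reached 1.05 in LOY 14 and 51.6 in the library labelled LOY 10.

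Acbd4 (ENSMUSG00000056938) lies on the plus strand at chr11:103101682-103112200 (GRCm38), with 10 merged exons. It starts head to head with Plcd3, a phospholipase C of the delta type on the minus strand at chr11:103070304-103101658. The annotated starts are 24 bases apart, so a single stretch of DNA holds the start of both genes. That stretch is shown because, of the listed genes within 200 kb, only this divergent neighbour had no reads in any control library. It is read from the RefSeq promoter window of Plcd3 (GRCm38.p6), 5′ to 3′ on the minus strand, chr11:103101629-103101711, with the 23 bases between the annotated starts in capitals and the Acbd4 side first.
Acbd4-Plcd3: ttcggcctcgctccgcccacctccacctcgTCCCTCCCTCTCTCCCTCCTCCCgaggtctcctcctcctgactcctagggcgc
RefSeq promoter entries were found for 3 of the 5 members, and those of Acbd3 and Acbd4 were absent.

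Between the starts, the minus strand has 16 C and 7 T among its 23 bases, with no A or G. The 300-base window around it had 62.3% G or C, against a median of 52.7% over 32851 promoter windows, and 22 CpG pairs, more than 76.9% of the windows. A GC box (GGGCGG or CCGCCC) was matched 1 time, within the stretch shown, and 35.7% of all windows held such a match. A CCAAT box (CCAAT or ATTGG) was matched 1 time outside that stretch, as in 37.4% of the windows. TATAAA, read on both strands, and the E-box CACGTG were not matched, and 13.6% and 7.15% of the windows held them. A match of letters is a description and not a binding site.

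Acbd4, whose product is a peroxisomal acyl-CoA binding protein, had normalised reads of 128 in LOY 3, 170 in LOY 4, 488 in LOY 5, 437 in LOY 10, 74.6 in LOY 14 and 238 in LOY 15. Among the control libraries it was at 2.18 in control 2 and at 0 in controls 6, 7, 8, 11 and 12. The groups did not overlap, and the lowest LOY library stood far above the highest control library. The mean was 256 ± 169 in LOY and 0.363 ± 0.888 in control (SD, n = 6 each), a difference of 7.43 on the log2 scale.

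In reads, Acbd4 had 1742 in the LOY libraries together and 3 in the control libraries, all 3 of them in control 2. Scaled for depth, that is a ratio of 661, with a 95% Clopper-Pearson interval of 226 to 3210 that covers counting error only. The interval counts reads, and without molecular identifiers, copies of the same molecule cannot be told apart. It also leaves out the spread between libraries and the choice of Acbd4 by this contrast, so it is no test. The authors' deposited table gives Acbd4 a log2 fold change of 9.30. Leaving out each library in turn put the log2 difference between 7.19 and 7.73, and it was 7.22 without LOY 10, the library with Ddx3y reads.

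Acbd4 is the only gene of the 11911 listed that had at least 10 normalised reads in all 6 LOY libraries and was above 0 in at most 1 control library, which is 0.0084% of the table. The converse pattern was also met by 1 gene, Zfp821, a zinc finger protein gene, and that is likewise 0.0084%. Zfp821 was not near absent in LOY, with 713 reads there, all in 1 library, against 2498 in control. Groups that did not overlap, were found for 0.201% of the genes tested, and with LOY higher for 0.101%. Acbd4 was chosen for this pattern, so nothing is read from these shares. In bulk RNA of sorted cells, a change in the number of cells that carry a transcript cannot be told apart from a change in the RNA per cell.

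**Figure D1:**
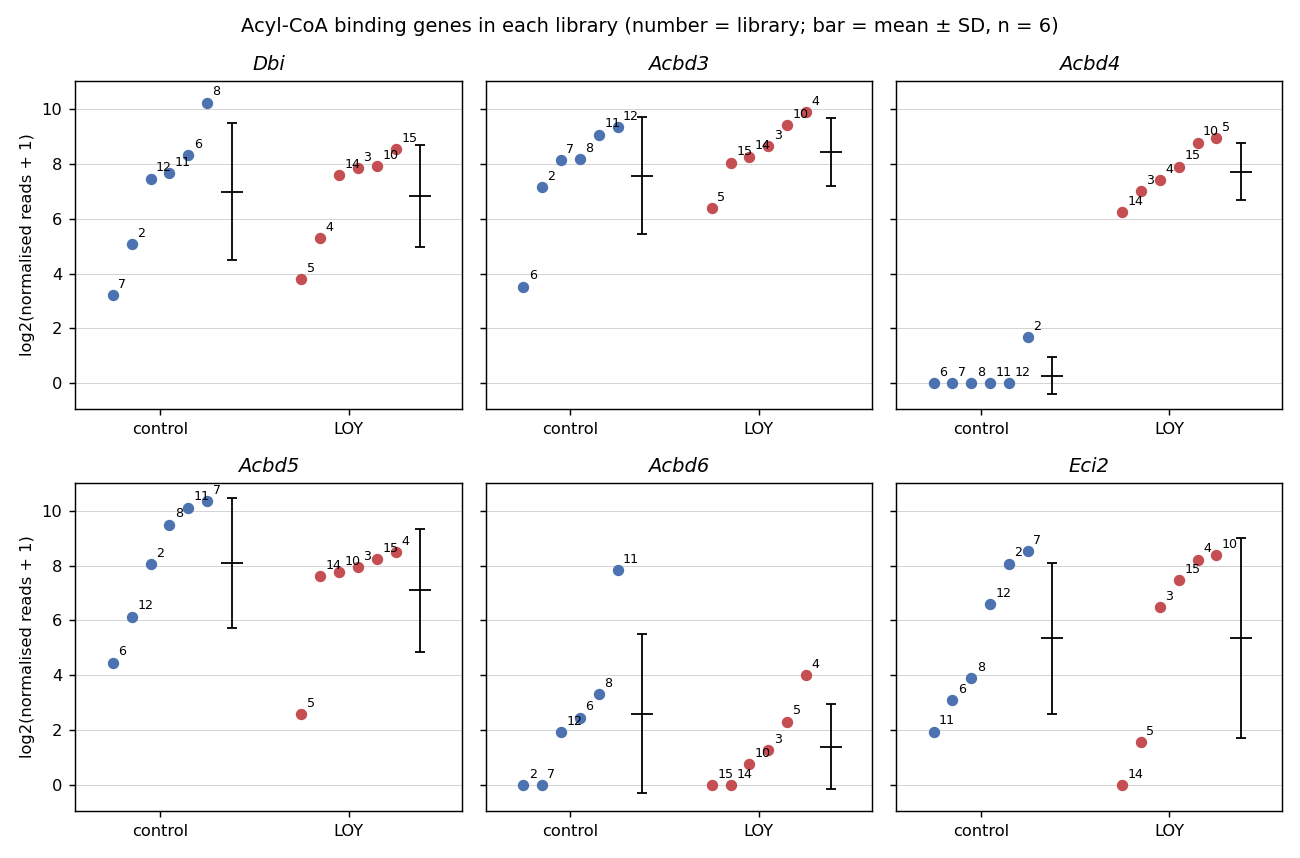
Normalised reads of the 5 members and of Eci2 in each library, on a log2(normalised reads + 1) axis, with points numbered by library and ordered by value and bars for the mean ± SD of 6 libraries. Acbd4 separates the groups, while the points of the other 5 genes overlap between control and LOY.

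Acbd5 (ENSMUSG00000026781, plus strand, chr2:23068167-23115558, 14 merged exons) is the closest relative of Acbd4 in place and role, a peroxisomal anchor that hands very long chain acyl-CoA to peroxisomal import. Its normalised reads were 267, 21, 1302, 721, 1106 and 69.4 in controls 2, 6, 7, 8, 11 and 12. In LOY 3, 4, 5, 10, 14 and 15 they were 245, 358, 4.94, 216, 195 and 302. The highest values were all in control libraries, but controls 6 and 12 lay below every LOY library except LOY 5, so the groups overlapped.

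The mean of Acbd5 was 581 ± 546 in control and 220 ± 121 in LOY (SD, n = 6 each), and the log2 fold change was -0.999 (SE 1.27, 95% interval -3.72 to 1.73), with a limma adjusted p of 0.9989, so the difference did not exceed the spread between libraries. Without LOY 5 it was -0.09. The authors' deposited table gives Acbd5 a log2 fold change of -1.40 with an adjusted p of 0.8573.

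Acbd3 (ENSMUSG00000026499, plus strand, chr1:180726043-180754204, 8 merged exons) encodes a Golgi scaffold that holds a lipid kinase at the Golgi membrane. Its normalised reads were 141, 10.5, 283, 290, 535 and 641 in controls 2, 6, 7, 8, 11 and 12. They were 399, 955, 82.1, 682, 306 and 263 in LOY 3, 4, 5, 10, 14 and 15. Control 6 stood far below the rest, and the other control libraries lay within the range of the LOY libraries.

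Acbd3 had a mean of 317 ± 236 in control and 448 ± 317 in LOY (SD, n = 6 each). The log2 fold change was 0.87 (SE 0.992, 95% interval -1.25 to 3.00) with a limma adjusted p of 0.9989, and it was 0.06 without control 6. An antisense gene, Gm37768, overlaps Acbd3 in the annotation and is not in the table. The library chemistry keeps no strand, so reads from both would count together where they overlap.

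Dbi (ENSMUSG00000026385, minus strand, chr1:120113280-120121078, 5 merged exons) encodes the soluble acyl-CoA binding protein. Its normalised reads were 32.6, 316, 8.28, 1200, 200 and 175 in controls 2, 6, 7, 8, 11 and 12. In LOY 3, 4, 5, 10, 14 and 15 they were 227, 38.4, 12.9, 239, 190 and 369. Both groups held libraries near 10 and libraries above 200, and control 8 stood highest of all.

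The mean of Dbi was 322 ± 445 in control and 179 ± 134 in LOY (SD, n = 6 each), and the log2 fold change was -0.17 (SE 1.28, 95% interval -2.92 to 2.59), with a limma adjusted p of 0.9995. The sign was not stable, since the value was 0.44 without LOY 5 and 0.48 without control 8. The interval leaves room for differences of several fold in either direction.

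Acbd6 (ENSMUSG00000033701, plus strand, chr1:155558120-155691330, 11 merged exons) encodes a partner of N-myristoyltransferases and was read little. It was at 229 in control 11, at 0 in controls 2 and 7 and at 4.49, 8.87 and 2.78 in controls 6, 8 and 12. In LOY 3, 4, 5, 10, 14 and 15 it was at 1.41, 15.1, 3.96, 0.706, 0 and 0. Control 11 held 403 of its 419 control reads, and the LOY libraries held 20 reads in all.

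Acbd6 reached 10 normalised reads in only 2 libraries, control 11 and LOY 4, and was not tested. Its log2 difference of -1.19 became -0.14 without control 11. The authors' deposited table lists -3.54 for Acbd6 with no p-value. Without the filter on low values, limma gave Acbd6 an adjusted p of 0.932.

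Eci2 encodes an enoyl-CoA isomerase that also carries an acyl-CoA binding domain, and it lies at chr13:34977748-35027096 on the minus strand. Its normalised reads ran from 2.84 to 366 in control, with a median of 54.6, and from 0 to 331 in LOY, with a median of 133. The groups overlapped throughout, and the log2 fold change was 0.006 (SE 1.79, 95% interval -3.84 to 3.85), with a limma adjusted p of 0.9999.

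Of the 3 members tested that were chosen by family and not by their own values (Dbi, Acbd3 and Acbd5), 0 passed the adjusted threshold in limma. Over all genes tested, 0.0288% passed it. The 2 genes behind that share were the Y-linked Ddx3y and Acbd4 itself. The call of Acbd4 is not read as a result, since Acbd4 was picked by this contrast. None of the 3 reached an unadjusted p of 0.05 either, which 4.37% of the genes tested did. In 21 alternative fits, DESeq2 and edgeR among them, the lowest adjusted p was 0.927 for Acbd3, 0.854 for Acbd5 and 0.932 for Dbi. Without the library labelled LOY 10, their log2 fold changes were 0.68, -1.13 and -0.38 in the same order.

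**Figure D2:**
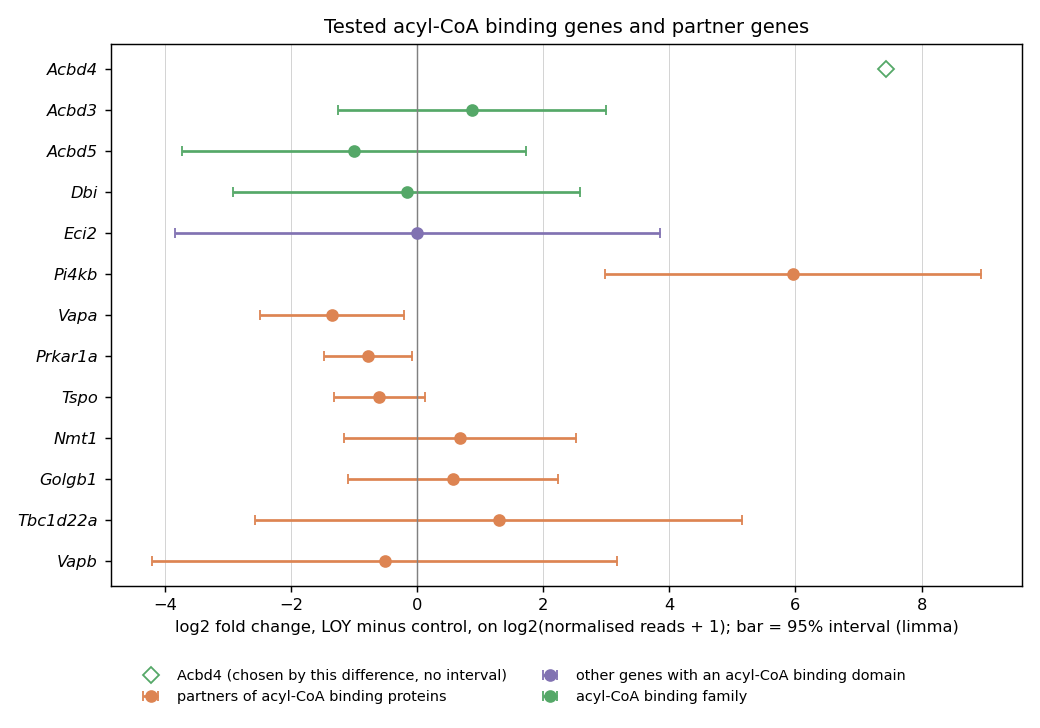
Log2 fold change (LOY minus control, on log2(normalised reads + 1)) of the tested members, Eci2 and the tested partner genes, with the 95% limma interval. Acbd4, chosen by this difference, is the open diamond at 7.43 with no interval, and the intervals of Acbd3, Acbd5, Dbi and Eci2 cross 0.

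Per kilobase of merged exons, Dbi had the highest mean over the 12 libraries at 176 ± 226 normalised reads per kb, followed by Acbd3 at 56.4 ± 40.6, Acbd4 at 43.6 ± 59.8, Acbd5 at 41.0 ± 43.1, Eci2 at 24.8 ± 25.8 and Acbd6 at 3.44 ± 10.1 (SD, n = 12). Each step in that order was smaller than the SD of the higher gene. Per kilobase of the principal transcript, Acbd4 moved below Acbd5 and Eci2, at 61.7 against 108 and 78.7 normalised reads per kb.

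Among the control libraries the per-kb means placed Acbd4 last, at 0.123 ± 0.302 normalised reads per kb. In the LOY libraries it came after Dbi, at 87.1 ± 57.7 against 126 ± 94.0 normalised reads per kb (SD, n = 6 each). Per kilobase of the principal transcript it came after Acbd3 as well, at 123 ± 81.6 against 129 ± 91.3 for Acbd3 and 315 ± 235 for Dbi. Dbi was the leading member per kb in 4 libraries of each group, Acbd5 in controls 2 and 7, Acbd3 in LOY 4 and Acbd4 in LOY 5. Acbd4 made up 11.3% to 88.2% of the family's per-kb sum in the LOY libraries, with a median of 20.8%, and at most 1.03% in a control library.

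The members did not move as a block across the libraries. LOY 5 was the lowest LOY library for Dbi, Acbd3 and Acbd5 and the highest for Acbd4. The other 4 members summed to 104 normalised reads in LOY 5, and to 692 to 1367 in the remaining LOY libraries. In the control libraries that sum ran from 352 to 2220, with a median of 1241 against 902 in LOY, so the groups overlapped.

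The sort was checked for transcripts of other heart cells. Of 15 cardiomyocyte markers, 15 were tested, 15 had a positive log2 fold change and 6 were at an unadjusted p below 0.05, with 0 past the adjusted threshold in limma. Over all genes tested, 3500 of 6951 fold changes were positive, and 2.33% were higher at that unadjusted level. The summed level of these markers was 4399 to 9470 normalised reads in control and 5881 to 74079 in LOY. In 5 of the 6 LOY libraries the sum lay above the highest control, with LOY 10 the highest of all, and LOY 5 lay inside the control range.

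The 10 endothelial markers summed to 1062 to 4097 normalised reads in control and 2596 to 6477 in LOY, with 7 of 9 tested markers positive and 3 higher at an unadjusted p below 0.05. Of the LOY libraries, 4 lay above the highest control for that sum. The 8 fibroblast markers summed to 139 to 1537 in control and 386 to 9377 in LOY, with 5 of 5 tested positive, 1 higher at that level and 3 LOY libraries above the highest control. Macrophage markers summed to 7278 to 9932 in control and 4074 to 13758 in LOY. B cell markers summed to 3263 to 12314 and 2996 to 8757, and red cell and platelet markers to 13.6 to 9765 and 165 to 6986, in the same order. No listed marker of these types was at 0 in every library.

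The cardiomyocyte and endothelial sums thus exceeded every control in most LOY libraries, as Acbd4 did in all of them. Acbd4 was highest, at 488 normalised reads, in LOY 5, whose cardiomyocyte sum of 5881 lay below that of 5 control libraries with 0 to 2.18 normalised reads of Acbd4. LOY 5 and LOY 3 had endothelial sums of 4008 and 2596, inside the control range of that sum, with Acbd4 at 488 and 128. LOY 5, 14 and 15 had fibroblast sums of 1388, 386 and 1229, inside the control range too, with Acbd4 at 488, 74.6 and 238. With the cardiomyocyte marker level as a covariate, the log2 difference in Acbd4 was 7.67. Under the same covariate, Acbd5 moved to -2.55 and Dbi to -1.63, with limma adjusted p of 0.854 and 0.932. The part of other heart cells in the values of Acbd4 and of the other members was not tested.

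**Figure D3:**
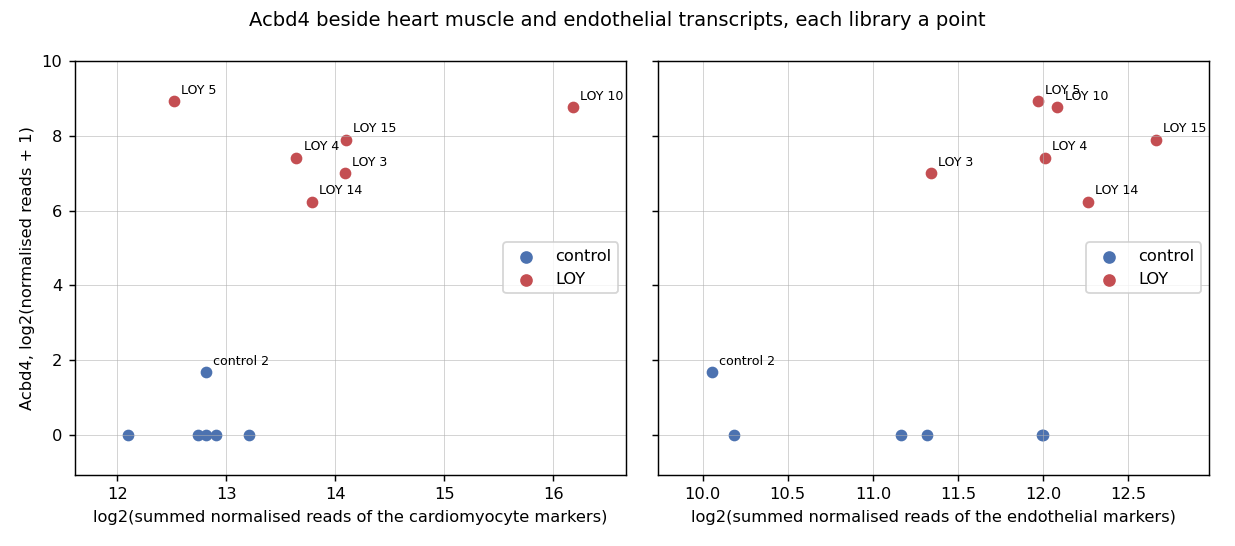
Acbd4 in log2(normalised reads + 1) against the log2 summed normalised reads of the cardiomyocyte markers (left) and of the endothelial markers (right), each library a point. On the horizontal axis, 5 (left) and 4 (right) of the 6 LOY libraries lie above every control. LOY 5 lies within the control libraries' span in both panels and LOY 3 in the right panel, with Acbd4 at 488 and 128 normalised reads.

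The genes around Acbd4 were read for comparison. Within 200 kb of it the annotation holds 16 other genes, of which 8 are in the table, 5 were tested and 0 overlap it. None of the 5 reached an unadjusted p of 0.05 in limma, and 0 passed the adjusted threshold.

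Plcd3 had 0 reads in all 6 control libraries. Its normalised reads were 38.7 in LOY 3, 45.4 in LOY 4 and 328 in LOY 10, and 0 in LOY 5, 14 and 15. LOY 5, highest for Acbd4, was among the libraries with none. Of its 558 reads, 464 were in LOY 10. Against a floor of 3 reads over the control group, the pooled reads of Plcd3 were at least 212-fold higher in LOY, or at least 45.4-fold without LOY 10. These bounds concern read counts only and leave out the spread between libraries. The difference of the group means on the log2(normalised reads + 1) scale was 3.20, and the groups overlapped at 0. LOY 3, 4 and 10 also had fibroblast marker sums of 2807, 5434 and 9377, above the highest control at 1537. The LOY libraries without Plcd3 reads were at 386 to 1388, inside the control range. Ly6g was at 0, 5.82 and 0.706 in LOY 3, 4 and 10, and at 0.925 in control 12, which had no Plcd3 reads. The part of other heart cells in Plcd3 was not tested. Plcd3 was below the filter and was not tested. The authors' deposited table gives Plcd3 an adjusted p of 0.0885.

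Hexim2, whose product binds the 7SK RNA that restrains transcript elongation, starts 30.7 kb downstream. It was at 26.7 in LOY 3, 63.3 in LOY 5 and 31.8 in LOY 10, at 0 in the other LOY libraries and at 1.14 in control 11, with 0 in the other controls. That is 147 reads against 2, a ratio of 83.7 (95% Clopper-Pearson interval 22.8 to 698, counting error of reads only), carried by 3 LOY libraries. Its relative Hexim1, between Acbd4 and Hexim2, was at 412 ± 208 in control and 206 ± 221 in LOY (SD, n = 6 each), with a log2 fold change of -2.20 (SE 1.32) and a limma adjusted p of 0.9971.

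Nmt1, an N-myristoyltransferase that starts 73492 bases upstream and a partner of Acbd6, was read in every library, at 366 ± 226 in control and 635 ± 583 in LOY (SD, n = 6 each). The log2 fold change of Nmt1 was 0.68 (SE 0.859) with a limma adjusted p of 0.9989. Fmnl1, a formin of blood cells downstream of Hexim2, was at 1160 ± 616 and 982 ± 433 (SD, n = 6 each), with a log2 fold change of -0.10 (SE 0.551).

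**Figure D4:**
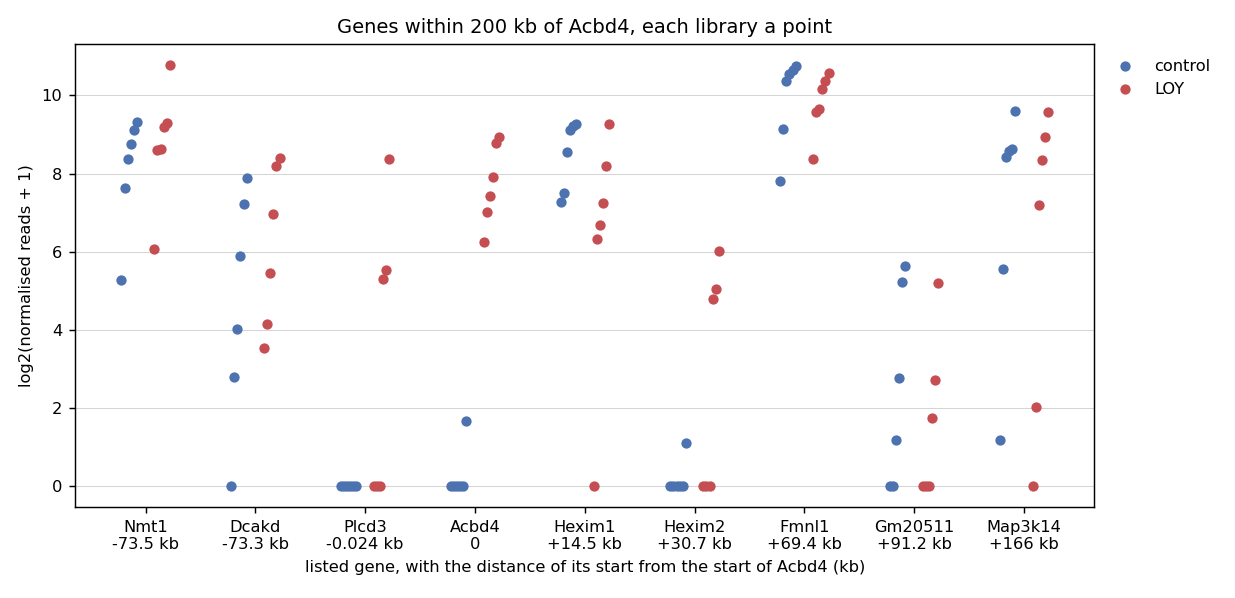
Log2(normalised reads + 1) of Acbd4 and of the 8 listed genes within 200 kb, ordered by the distance of their start from that of Acbd4, each library a point. Plcd3 and Hexim2 are at or near 0 in all control libraries and in 3 of 6 LOY libraries, and the other neighbours overlap between the groups.

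Around the other members, 3110009E18Rik, which starts 109 bases from Dbi on the other strand, averaged 21.7 ± 41.6 normalised reads in control and 0.845 ± 1.35 in LOY (SD, n = 6 each), and was not tested. Within 200 kb, 7 genes near Acbd3, 4 near Acbd5, 4 near Acbd6 and 2 near Dbi were in the table. The only tested neighbour of a member at an unadjusted p below 0.05 was Abi1 near Acbd5, at 1447 ± 478 in control and 693 ± 250 in LOY (SD, n = 6 each), with a log2 fold change of -1.12 and a limma adjusted p of 0.9971.

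The proteins that the family works with were read from a list of 11 partner genes, all in the table, of which 8 were tested. At an unadjusted p below 0.05, 1 was higher and 2 were lower in LOY, and 0 passed the adjusted threshold in limma. Over all genes tested, 2.33% were higher and 2.04% lower at that level. The median log2 fold change of the 8 was 0.03, against 0.0081 over all genes tested.

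Pi4kb, the phosphatidylinositol 4-kinase that Acbd3 recruits to the Golgi, was at 260, 396, 744, 641, 71.5 and 90.6 normalised reads in LOY 3, 4, 5, 10, 14 and 15. It was at 161 in control 2, at 1.66, 5.07 and 1.14 in controls 7, 8 and 11, and at 0 in controls 6 and 12. All 6 LOY libraries exceeded 5 of the 6 controls, and control 2 lay above LOY 14 and 15. The mean was 367 ± 280 in LOY and 28.1 ± 65.1 in control (SD, n = 6 each), a log2 fold change of 5.96 (SE 1.39, 95% interval 2.98 to 8.94), which did not pass the threshold (limma adjusted p 0.696). The authors' deposited table gives Pi4kb 3.70 with an adjusted p of 0.1551.

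Vapa, the endoplasmic reticulum protein that peroxisomal Acbd proteins bind, was at 1298, 838, 851, 1447, 841 and 527 in controls 2, 6, 7, 8, 11 and 12. In LOY 3, 4, 5, 10, 14 and 15 it was at 729, 434, 376, 852, 169 and 125. Of the LOY libraries, 4 lay below every control, and LOY 3 and 10 lay within the control range. The log2 fold change of Vapa was -1.35 (SE 0.533), with a limma adjusted p of 0.9971. Vapb, its paralog, was at 58.4 ± 63.4 in control and 76.3 ± 100 in LOY (SD, n = 6 each), with a log2 fold change of -0.52 (SE 1.72).

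Prkar1a, a regulatory subunit of protein kinase A that Acbd3 binds, was at 3014 ± 1284 in control and 1690 ± 477 in LOY (SD, n = 6 each). The log2 fold change of Prkar1a was -0.78 (SE 0.325) with a limma adjusted p of 0.9971. Tspo, the outer mitochondrial membrane protein bound by both Dbi and Acbd3, was at 2662 ± 1394 and 1666 ± 493 (SD, n = 6 each), with a log2 fold change of -0.60 (SE 0.334). Golgb1, the giantin that anchors Acbd3 at the Golgi, had 0.58 (SE 0.778), and Tbc1d22a, a Rab regulator that binds Acbd3, had 1.29 (SE 1.80).

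Across 10 lists of acyl-CoA genes, partners and Eci2 included, 118 of 141 genes were in the table and 76 were tested. In limma 0 passed the adjusted threshold. At an unadjusted p below 0.05, 3 were higher and 2 lower, and 45 of the 76 fold changes were positive and 31 negative, with a median of 0.32. Over all genes tested, 2.33% were higher and 2.04% lower at that level, and 3500 fold changes were positive and 3451 negative. edgeR on the recovered reads also called 0, with 2 at an unadjusted p below 0.05. DESeq2 called 3 of the 104 to which it gave a p-value (Acacb, Acad9 and Pex10), against 3.12% of all genes. Without LOY 5 it called 2 of 102 (Acad9 and Scd1), against 2.8%. These names are given after their values were seen, and both counts are near the share over all genes.

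Among the enzymes that make acyl-CoA, 6 of the 12 listed synthetases were tested and 0 were at an unadjusted p below 0.05, with a median log2 fold change of 0.89. The long-chain synthetase Acsl1 had 1.62 (SE 1.30), the acetoacetyl-CoA synthetase Aacs 1.38 (SE 2.05) and Acsl5 0.95 (SE 1.80). Without control 8 they were 0.25, 0.18 and 0.20. Of the thioesterases, which split acyl-CoA, 5 of 7 listed genes were tested, 0 were at that level and the median was 2.13. Acot9 had 3.45 (SE 1.90), Acot7 2.25 (SE 1.48) and Acot2 2.13 (SE 1.43). All of these fold changes had 95% intervals that cross 0.

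The carnitine shuttle, which carries acyl groups into mitochondria, had 5 of 5 listed genes tested, with 0 at an unadjusted p below 0.05 and a median log2 fold change of -0.86. The carrier Slc25a20 had 3.11 (SE 1.98), the outer-membrane transferase Cpt1a -1.96 (SE 1.26) and the carnitine acetyltransferase Crat 1.07 (SE 1.47). Mitochondrial beta-oxidation had 10 of 17 listed genes tested, 1 higher and 0 lower at that level, and a median of 1.25. Hadha, the alpha subunit of the trifunctional protein, was at 101 ± 154 in control and 419 ± 240 in LOY (SD, n = 6 each), a log2 fold change of 3.98 (SE 1.46, limma adjusted p 0.9971). Acadm and Acadl, dehydrogenases of medium and long acyl chains, had -2.70 (SE 1.51) and 1.52 (SE 1.05). The heart muscle markers above had positive fold changes too, and with their level as a covariate the value of Hadha was 4.26. The part of heart muscle cells in the values of Hadha was not tested.

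In peroxisomal oxidation and import, where Acbd5 and Acbd4 act, 8 of 12 listed genes were tested, 0 were at an unadjusted p below 0.05 and the median log2 fold change was 0.36. The thiolases Acaa1a and Acaa1b had 0.38 (SE 0.378) and 0.84 (SE 0.961). Of the peroxins, which build peroxisomes, 8 of 15 listed genes were tested, 0 were at that level and the median was -0.20. Pex19, which inserts peroxisomal membrane proteins, had -2.62 (SE 1.54), Pex6 -3.24 (SE 1.91) and the import receptor Pex5 1.79 (SE 2.14).

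Of the acyltransferases and ceramide synthases, which use acyl-CoA to build membrane and storage lipids, 16 of 20 listed genes were tested, 1 was higher and 0 lower at an unadjusted p below 0.05, and the median log2 fold change was 0.23. Agpat2, which makes phosphatidic acid, was at 270 ± 336 in control and 634 ± 220 in LOY (SD, n = 6 each), a log2 fold change of 2.10 (SE 0.846, limma adjusted p 0.9971). Lpcat3, which remodels phosphatidylcholine, had -3.37 (SE 1.62), and Sptlc1, a subunit of the first enzyme of sphingolipid synthesis, had -2.97 (SE 1.87). Fatty acid synthesis and its regulators had 9 of 18 listed genes tested, 0 at that level and a median of -0.08. The elongases Elovl5 and Elovl1 had 2.47 (SE 1.86) and -2.02 (SE 1.58), and the sterol sensor partner Scap had -2.23 (SE 1.77).

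**Figure D5:**
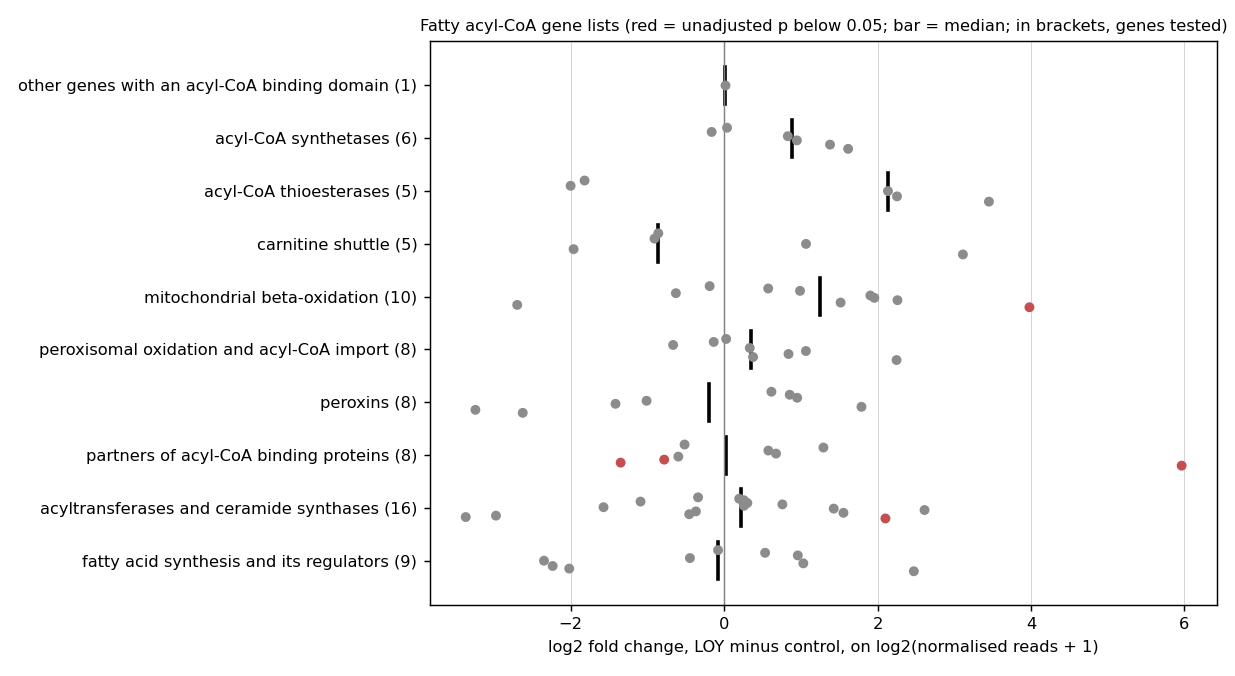
Log2 fold change (LOY minus control, on log2(normalised reads + 1)) of every tested gene of the 10 lists, with the median of each list as a bar and the genes at an unadjusted p below 0.05 in red. Of the 76 genes, 5 are red, and the highest is Pi4kb at 5.96.

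Likeness of profile was measured as the root mean square difference over the 12 libraries between log2(normalised reads + 1) profiles, each centred on its own mean, where 0 is identity. By this measure the 5 tested genes nearest to Acbd4 were Pi4kb at 1.68, Tusc2 at 2.23, Rnf170 at 2.24, Zpr1 at 2.26 and Ppp6c at 2.32, against a median of 4.24 over all genes tested. Acbd4 was chosen for its contrast between the groups, so genes near its profile are high in LOY and low in control largely by construction. Nothing is read from that likeness. Each of the 5 had at least 10 normalised reads in all 6 LOY libraries and was read in 2 to 6 control libraries. Zpr1, a zinc finger protein gene, had a lowest LOY value of 220 and a highest control value of 218, so its groups did not overlap. Nor did those of Rnf170, at 85.5 and 73.3. The ranges of Pi4kb, Tusc2 and Ppp6c overlapped between the groups.

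The nearest profiles of the other members were Nop10 at 0.813 and Rps20 at 0.880 for Dbi (median over genes 2.89), and Usp19 at 0.603 and Mpeg1 at 0.768 for Acbd3 (median 2.67). For Acbd5 they were Supt20 at 1.08 and C130026I21Rik at 1.13 (median 2.93), and for Acbd6 Herc1 at 1.42 and Aph1b at 1.65 (median 3.05). Nop10 and Rps20, genes of ribosome assembly and of the small ribosomal subunit, averaged 119 ± 110 and 350 ± 274 in control and 116 ± 145 and 288 ± 214 in LOY (SD, n = 6 each). Their levels, like that of Dbi, ran widely within both groups.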

How the data were processed

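Each library held 800 sorted cells, with cDNA made by SMART-Seq v4 and Nextera XT libraries, per the labels' protocols, which keep neither strand nor molecular identifiers. GRCm38 and mm10 are named as builds, and STAR 2.5.2b, featureCounts (Subread 1.5.2), Trimmomatic 0.36 and bcl2fastq 2.17 as tools, per the submitters' processing notes. The authors deposited 1 table whose signal columns hold each gene's reads over a scaling factor of the library, per the file headers and the values. Its log2 fold change and its p-value columns are the authors' deposited results, and the tool behind them was not given in the sources used here. In every library, 100% of values above 0 were whole multiples of the value of 1 read, within 0.01 read, so reads were recovered for count tests. DESeq2 factors computed from these reads differed from the authors' by at most 1.08e-11 in relative terms. For every member the deposited log2 fold change equals that of DESeq2 on these reads, so the deposited values and that fit are not independent. In LOY 5 a read is worth 0.989, close to 1, and the count tests were also repeated without LOY 5. The table had 0 unmapped columns of per-sample values.

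The main fit was limma 3.58.1 (R 4.3.3; trend and robust empirical Bayes) on log2(value + 1) with genotype, for genes of at least 10 in at least 6 of 12 libraries. Alternatives were edgeR 4.0.16 and DESeq2 1.42.0, quantile normalization, other filters, pseudocounts of 0.5 and 5, array weights, a cardiomyocyte covariate and each library left out. The fit was tested on simulated data with a capped dispersion. There 10032 genes passed the filter, against 6951 of the real data, so the call rates need not carry over to the real data. In the simulation it called 0% of the genes changed 2-fold, 26.6% of those changed 8-fold and 37.5% of those changed 32-fold. Of the unchanged genes it called 0.0711%. A gene not past the adjusted threshold is thus not shown to be unchanged. Positions, exons and lengths are from GENCODE M21, matched by 11896 of 11911 identifiers, and 25 symbols were replaced from it. Motif shares are over the RefSeq promoter windows of GRCm38.p6.

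Genes named are every member, Eci2, the 3 tested genes of smallest p per list described, the neighbour on either side of Acbd4, genes that overlap a member, and the nearest profiles (5 for Acbd4, 2 for each other member). Of these, 1 list gene is not reported here. The other tested partner genes, the remaining neighbours given with values, and Zfp821 were chosen after their values were seen. The members and lists were chosen with earlier results of these data known.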

Additional observations from a re-analysis of the deposited data

Results flagged for a closer look

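In 19 groups of 6 libraries, the highest or lowest library was compared with its nearest neighbour on the log2(normalised reads + 1) scale, and marked where that gap exceeded 0.625 of the group's range. Of the 19, 4 were marked. Chance marks about 1 in 20 groups of values that vary freely, a rate that does not hold where all other libraries are at 0, as in 2 of the 4. Acbd4 in control 2, at 2.18 normalised reads, stood apart from the other control libraries, which were all at 0. Hexim2 in control 11, at 1.14, likewise stood apart from control libraries at 0. Acbd5 in LOY 5, at 4.94, lay far below the other LOY libraries, and Hexim1 in LOY 5 was at 0 while the other LOY libraries had reads. LOY 5 was thus apart for both Acbd5 and Hexim1. No cause was tested.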

How the results depend on the processing

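No paired analysis was possible because the groups share no replicate number. Past the adjusted threshold, limma called 2 of the 6951 genes, Ddx3y and Acbd4, and nothing is read from the call of Acbd4. It called 1 gene under quantile normalization and 0 with no filter, with a mean of at least 50 or with the cardiomyocyte covariate. With each library left out it called 0 to 3. Unadjusted p below 0.05 was reached by 304 genes, and by 284 under quantile normalization, 327 with a mean of at least 50, 466 with no filter and 479 with the covariate. DESeq2 called 303 genes and edgeR 0 (130 at an unadjusted p below 0.05). Without LOY 5, an alternative chosen after seeing the data, DESeq2 called 269 and edgeR 0. The log2 difference in Acbd4 was 5.34 with a pseudocount of 5, 9.30 with DESeq2 and 9.04 with edgeR (9.01 and 8.76 without LOY 5), and 7.19 to 7.73 with each library left out. These Acbd4 fits were also added after seeing the data. Dbi changed sign, to 0.067 under quantile normalization, 0.36 with array weights and -0.92 to 0.48 with each library left out. Eci2 changed sign too, to -0.19 under quantile normalization, -0.15 with a pseudocount of 0.5 and -1.33 with the covariate, and ran from -0.68 to 1.08 with each library left out. Acsl5 turned to -1.51 with the covariate. Pex5 turned to -0.81 with the covariate, -0.26 with DESeq2 and -0.29 with edgeR. For these changes the cause was not tested. Acbd3 kept a positive sign (0.065 to 1.286) and Acbd5 a negative one (-2.554 to -0.092) in 21 fits each, and Acbd6 a negative one in 14. Of 586 values of Eci2 and the named list genes (28 genes, members not counted) across the alternatives, 14 changed sign, all in Eci2, Acsl5 and Pex5, and leaving out a single library moved 15 of the 28 genes' values by over 1.5 times. The spread between libraries, with 6 per group, limits what these data can show for Dbi, Acbd3 and Acbd5.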
